A study of Homo sapiens with 4 samples.

Results

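N6-methyladenosine (m6A) is written on mRNA by a nuclear methyltransferase complex, read by YTH-domain proteins and removed by demethylases called erasers. FTO and ALKBH5 are the m6A erasers. Both belong with ALKBH1 to ALKBH8 to the AlkB family, enzymes that use iron, oxygen and 2-oxoglutarate to oxidise a methyl group or another target. The rest of the family acts mainly on alkylated DNA, on transfer RNA or on proteins. Transcripts of these 9 genes were looked up among the RNAs that came down with YTHDF1, a cytoplasmic m6A reader.

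The 9 members were fixed by name as FTO and ALKBH1 to ALKBH8, and every row of the authors' deposited peak table with that gene name was taken. A window was listed for 4 of the 9 genes, with 18 windows in all, out of 26819 distinct windows in 7550 genes of the whole table. The RNA immunoprecipitation sequencing (RIP-seq) was performed in SNU638, an established human gastric cancer cell line. The cells overexpressed YTHDF1, which carried a FLAG tag per the study's methods, were starved of serum for 24 h and were treated with interferon-γ (IFN-γ, 10 ng/ml) during the following 24 h. All 4 libraries shared the overexpression and the IFN-γ treatment. They formed 2 groups of 2 biological replicates, IP-YTHDF1 (RNA pulled down with the tagged protein) and Input (RNA of the lysate before pull-down). The comparison held neither untreated cells nor cells without the transgene, so the effect of IFN-γ or of the overexpression on these windows cannot be read from it.

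Each listed window was 50 bp wide and carried a single signal value for IP-YTHDF1 against Input, together with its p-value and its q-value. Peaks were taken from the union of the replicates per a legend of the study, and how many replicates stand behind a given window is not stated. The table gave no value for any single library. The depth per library is therefore unknown, no spread between replicates could be computed, and no difference between genes below was tested. The signal value is the authors' score, whose scale is not stated. Its median over all listed windows was 1.84, its quartiles were 1.54 and 2.19, and its extremes were 0.70 and 9.46. Every listed window had an authors' q-value of at most 0.05. Of the epithelial markers, 4 of 5 had a listed window, CDH1 being the one without, and none of 4 markers of leukocytes, fibroblasts and endothelium had one. A listed window is not an expression level.

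The members split into 4 listed and 5 unlisted genes. The listed genes were both m6A erasers, FTO (6 windows) and ALKBH5 (9 windows), together with ALKBH1 (1 window), an enzyme of tRNA and mitochondrial RNA modification, and ALKBH2 (2 windows), which repairs alkylated bases in DNA. No window was listed for ALKBH3, which repairs alkylated DNA and RNA, for ALKBH4, ALKBH6 or the mitochondrial protein ALKBH7, or for ALKBH8, which modifies the wobble uridine of tRNA. The 4 of 9 genes are a share of 44.4%, beside 31.8% of all RefSeq protein-coding genes (6370 of 20056). The difference between these shares was not tested, and 1 gene more or fewer would move the members' share by 11.1 percentage points. For a gene without a row, absence of binding and a level too low for a call cannot be told apart.

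Stricter limits thinned the group. At an authors' q-value of at most 0.001, a window remained for 3 members, ALKBH5, FTO and ALKBH1, and for 21.2% of all RefSeq protein-coding genes. A signal value of at least 2 left the same 3 members, beside 22.0% of all genes. A Bonferroni limit over the 310015 windows counted in listed genes (p-value of at most 1.61e-07) left ALKBH5 alone, with 3 windows, beside 12.5% of all genes. ALKBH2 passed none of these limits, and ALKBH5 passed each of them.

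ALKBH5 (ENSG00000091542, plus strand of chromosome 17), the nuclear m6A demethylase, had the strongest listed window among the members. All 9 of its listed windows lay within 700 bp at the 5′ end of a gene that spans 26127 bp in RefSeq (GRCh38.p14, positions 18183828 to 18209954). The first window began 549 bp upstream of the RefSeq start, and 5 windows lay wholly upstream of it. The authors' table assigned them to ALKBH5 by its Ensembl identifier, and the annotation used for that is not stated. Of the listed protein-coding genes with a matched RefSeq span, 2.17% (138 of 6369) had a window wholly upstream of that span. The sixth window, 18183779 to 18183828, ended on the first RefSeq base.

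The sequence of this segment is held in part by the RefSeq promoter of ALKBH5, which covers 250 bases before the start and 50 after it. The central 30 bases of the listed windows inside it are shown because they include the window with the highest listed signal value, window 7, and the 3 listed windows just before it. Windows 8 and 9, which also passed the Bonferroni limit, lie beyond this promoter sequence and are not shown. The last line gives 30 bases around the only DRACH match of that promoter, in capitals. DRACH is the 5-base consensus of m6A sites, read here on the RNA strand as A, G or T, then A or G, then A, then C, then A, C or T.
ALKBH5 window 4: gcaatatgagcgcacccctgtagagggagc
ALKBH5 window 5: gccggcgcctctgccgacccggcctgcacg
ALKBH5 window 6: gcggagccgcggtggccggcagcactgcgc
ALKBH5 window 7: taaggagcggcgctggcggacgtcgggctg
ALKBH5 DRACH match: ggcgcggcgtgaAGACAggttgctatttga

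Among the 4 ALKBH5 windows with sequence, windows 5 to 7 were richer in G and C than the median whole promoter, and window 4 was not. The same held, by a smaller margin, against the 72% median of listed windows inside their own promoters, given below. The share of G and C was 60.0% in window 4, 78.0% in window 5, 82.0% in window 6 and 75.5% in the 49 bases of window 7 that the promoter sequence covers. The whole promoter had 71.0%, above 76.7% of 15843 RefSeq protein-coding promoters, whose median was 62.7%. None of these 4 windows held a DRACH match. The only match lay 180 bp upstream of the RefSeq start, between listed windows, in a gap from 18183629 to 18183728. At least 5 ALKBH5 windows that passed were not listed, and whether any of them lies in this gap is not known. All promoters of the same length held a median of 4 matches, 96.5% held at least 1, and 13.3% held at most 1. Among 218 listed windows of any protein-coding gene that lay wholly inside the promoter of their own gene, 39.0% held a match, beside 46.9% of all 50-base pieces of the promoters. The median share of G and C in these 218 windows was 72%, above the promoter median of 62.7%. The part of this composition in the share of matches was not tested. Over the whole RIP-seq, the study reported DRACH as a preferred motif of YTHDF1. The absence of these letters from the 4 windows says nothing about m6A elsewhere in the transcript.

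Among the 9 listed windows of ALKBH5, the highest signal value fell on the first one after the RefSeq start. From 5′ to 3′, the 6 windows before it had signal values of 1.80, 1.62, 1.24, 1.59, 1.61 and 1.62. The window from 18183829 to 18183878 had 2.66, with an authors' p-value of 9.43e-10 and q-value of 7.16e-08. The windows from 18183879 to 18183928 and from 18183929 to 18183978 followed with signal values of 1.55 and 1.59. The 3 windows from the start onward were the only listed ALKBH5 windows past the q-value limit of 0.001 and the only listed member windows past the Bonferroni limit, while the p-values of the 6 earlier windows ran from 0.000307 to 0.005483. The strongest window exceeded 91.9% of all listed windows.

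**Figure D1:**
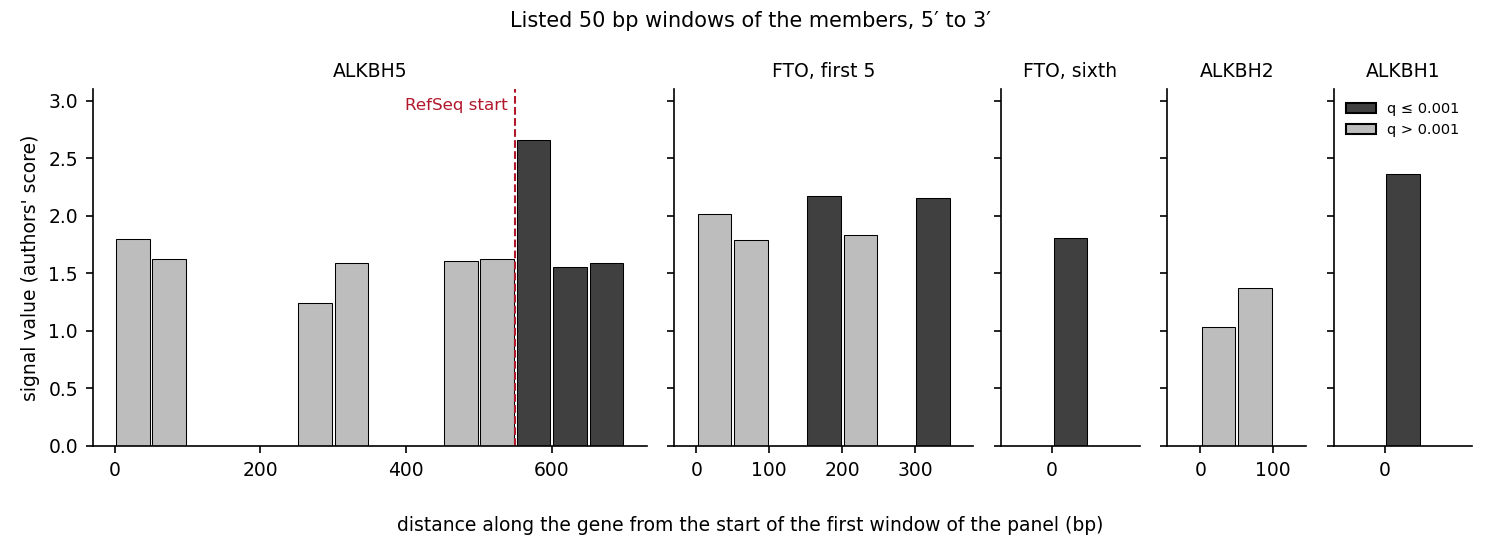
Signal value (the authors' score, vertical axis from 0) of each listed 50 bp window of ALKBH5, FTO, ALKBH2 and ALKBH1, in 5′ to 3′ order against the distance in bp from the first window of each panel; dark bars have an authors' q-value of at most 0.001, grey bars a larger one, and the dashed line marks the RefSeq start of ALKBH5. The tallest bar is the ALKBH5 window just after that start, at 2.66, and the ALKBH2 bars, at 1.03 and 1.37, are among the lowest.

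Signal value and p-value parted in 2 of the ALKBH5 windows. The last 2 windows had authors' p-values of 2e-08 and 8.77e-09, although their signal values of 1.55 and 1.59 lay below the median of the table. Of the listed windows with a signal value within 0.05 of theirs, 98.1% and 98.9% had larger p-values, and the medians were 0.000362 and 0.00106. The strongest ALKBH5 window showed no such gap, as 55.9% of windows with a similar signal value had larger p-values. The same last 2 windows overlapped a window of the lncRNA gene AC087164.1 (ENSG00000266677) on the minus strand, at 18183926 to 18183975, by 3 bp and 47 bp. That gene had 1 listed window, with a signal value of 2.22 and an authors' q-value of 0.00027. The libraries were strand-specific per the labels, but whether strand was used in counting is not stated, so reads of the 2 genes may not be separated there, and the part of this overlap in the p-values was not tested.

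**Figure D2:**
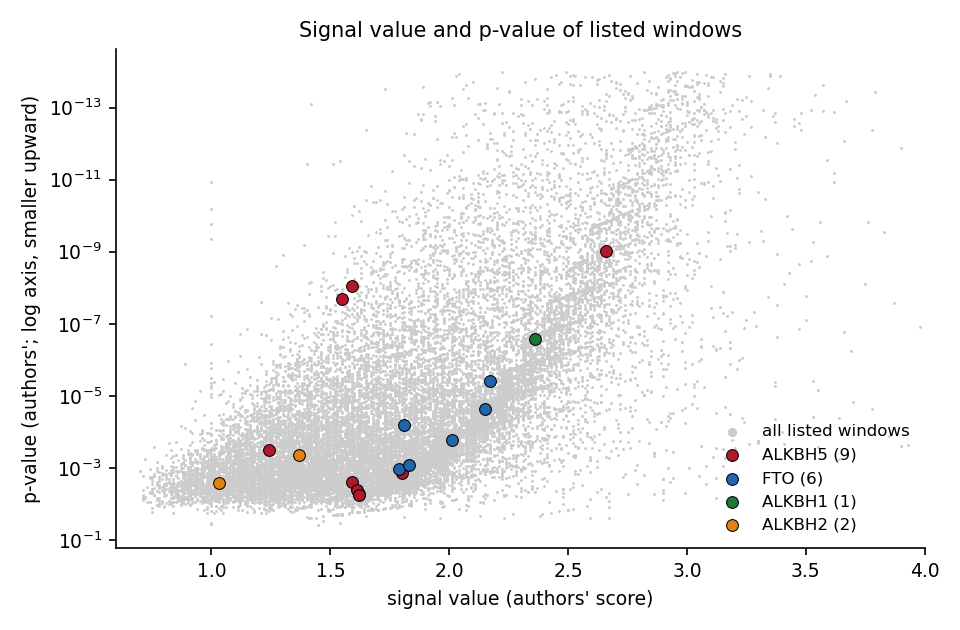
Authors' p-value (log axis, smaller values upward) against signal value (the authors' score) for all listed windows in grey and for the 18 member windows in colour; windows with a p-value of 1e-14 or less or a signal value above 4 are not drawn. The 2 ALKBH5 points at signal values of 1.55 and 1.59 sit far above most grey points at that signal value, and the other member points lie nearer the bulk.

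The list of ALKBH5 windows was not complete. The authors' q-values follow from their p-values when these are adjusted within each gene by the Benjamini-Hochberg procedure, so the quotient of the 2 gives the number of windows tested in a gene and the place of each window in the order of p-values. For ALKBH5, taking its smallest listed p-value as the first in order, it gave 76 tested windows, more than in 86.4% of listed protein-coding genes, and places up to 14. At least 14 windows had thus passed where 9 were listed, and at least 5 were missing. The listed places jumped from 3 (authors' p-value 2e-08) to 7 (authors' p-value 0.000307). Some missing windows thus had p-values no larger than those of the 6 windows before the strongest listed one. No gene had more than 9 listed windows, and of the 854 protein-coding genes with that number 61.7% also had places above it. The true extent of the ALKBH5 signal, and where the missing windows lie, is therefore not known from this table. FTO (36 tested windows) and ALKBH2 (20) showed no such gap. ALKBH1 (18) could not show one, since its single listed window was taken as the first in order.

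FTO (ENSG00000140718, plus strand of chromosome 16), which demethylates m6A and the cap-adjacent m6Am, had windows in the interior of the gene. RefSeq places FTO at 53703963 to 54121941, a span of 417979 bp. The first 5 windows fell within 350 bp, from 53825893 to 53826242, at 29.2% of the span from its 5′ end. Their signal values from 5′ to 3′ were 2.01, 1.79, 2.17, 1.83 and 2.15. The sixth window, from 53879893 to 53879942, lay 53650 bp further on, at 42.1% of the span, with a signal value of 1.81. These 6 values were closer together than the 9 of ALKBH5, with a lowest value of 1.79 in FTO and 1.24 in ALKBH5. The authors' q-value was at most 0.001 in 3 of the 6 windows, and the smallest was 0.000141, at 53826043 to 53826092. Whether the windows lie in coding sequence was not analysed here, since exon annotation was not used.

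ALKBH1 (ENSG00000100601, minus strand of chromosome 14) had a single window, from 77694805 to 77694854. It lay at 37.0% of a RefSeq span of 35620 bp, counted from the 5′ end. Its signal value was 2.36 and its authors' q-value 4.74e-06, so this 1 window exceeded each of the FTO windows in signal value and in significance. Taken as the first in order of p-values, it was 1 of 18 tested windows (5.6%), beside 16.7% of the tested windows in FTO.

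ALKBH2 (ENSG00000189046, minus strand of chromosome 12) had a pair of touching windows from 109092739 to 109092838, between 634 and 733 bp from the RefSeq 5′ end of a gene of 5284 bp. Their signal values were 1.03 and 1.37 from 5′ to 3′, with authors' q-values of 0.02572 and 0.008697. These exceeded 3.5% and 16.0% of all listed windows. No other member's windows lay as low throughout.

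Ordered by the strongest listed window of each gene, the listed members ran from ALKBH5 (2.66) through ALKBH1 (2.36) and FTO (2.17) to ALKBH2 (1.37). Without a spread per window it cannot be said which neighbours in this order differ. Among the 6679 listed protein-coding genes, whose median was 2.23, these values exceeded 79.8% of genes for ALKBH5, 61.0% for ALKBH1, 45.0% for FTO and 2.3% for ALKBH2. The place of ALKBH5 rested on 1 listed window. By the median of its listed windows, 1.61, it exceeded 19.7% of genes, but this median leaves out at least 5 windows that passed. FTO, whose list showed no gap, exceeded 51.1% of genes with a median of 1.92. Among the 854 genes that also had 9 listed windows, the strongest ALKBH5 window exceeded 62.3%. Set beside genes with their own number of listed windows, ALKBH1 exceeded 74.5% of 1934, FTO 29.9% of 344 and ALKBH2 2.6% of 1175. These shares refer to different sets of genes. At least 14 ALKBH5 windows had passed, so its number of listed windows is too low. The shares therefore do not rank ALKBH1 against ALKBH5.

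**Figure D3:**
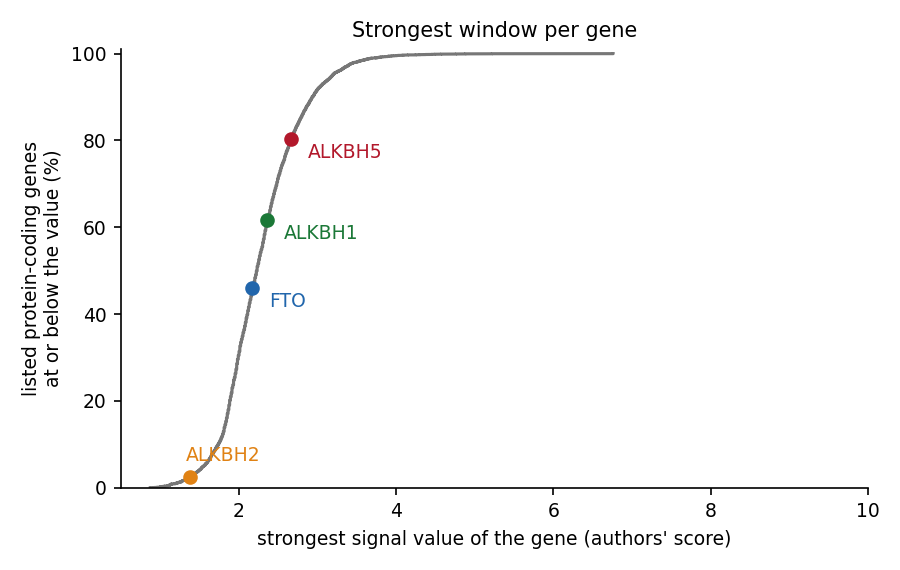
Cumulative share of listed protein-coding genes (%) against the strongest signal value of the gene (the authors' score), with the 4 listed members as points. ALKBH2, at 1.37, lies at the foot of the curve, FTO and ALKBH1 on its steep part at 2.17 and 2.36, and ALKBH5, at 2.66, near its shoulder.

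The strongest listed window lay before the midpoint of the RefSeq span in each of the 4 listed members. It lay at 0.1% of the span in ALKBH5, 13.4% in ALKBH2, 29.2% in FTO and 37.0% in ALKBH1. For ALKBH5, at least 5 windows that passed were not listed, and neither their signal values nor their positions are known. A strongest listed window before the midpoint was the more common case in the table as a whole. It held for 65.8% of the 6369 listed protein-coding genes with a matched RefSeq span, and the median position was 23.3%. Genes with 9 listed windows, the most of any gene, may also lack windows that passed. The span includes introns, so these are positions in the gene and not in the mRNA. On their own strand, the member windows overlapped no window assigned to a different gene.

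The 9 members were then placed beside the genes that write and read m6A. A window was listed for 8 of 9 writer genes (88.9%) and for 7 of 8 reader genes (87.5%), the exceptions being METTL14 and IGF2BP1. Over all RefSeq protein-coding genes the share was 31.8%. Among listed genes, the median of the strongest signal value was 2.32 for writers and 2.37 for readers, beside 2.265 (midpoint of FTO and ALKBH1) for the members. Both m6A erasers, FTO and ALKBH5, were listed, beside 2 of the other 7 members. These are small counts, and this split of the family was not tested. YTHDF1, among the readers, was the overexpressed gene itself. The difference between these lists was not tested.

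The other iron- and 2-oxoglutarate-dependent oxygenases were set beside the members as well. There were 40 such genes, which include histone demethylases, prolyl and lysyl hydroxylases and the oxygen sensors of the hypoxia pathway. Of these, 27 had a listed window (67.5%), beside 31.8% of all RefSeq protein-coding genes. The median strongest signal value of the listed oxygenases was 2.39. Their values ran from 1.63 in JMJD6 to 3.64 in P3H2, a collagen prolyl hydroxylase, so ALKBH2 at 1.37 lay below every one of them. The P3H2 value rested on 1 listed window of 2 tested, with an authors' q-value of 8.01e-05. HIF1AN and EGLN1, hydroxylases that act on hypoxia-inducible factors, had strongest signal values of 2.91 and 2.39. The histone demethylase KDM4C, at 2.67, was the oxygenase nearest to ALKBH5.

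Among 24 genes that act with ALKBH proteins or in their pathways, 8 had a listed window (33.3%), with a median strongest signal value of 2.18. That share was close to the 31.8% of all RefSeq protein-coding genes. TRMT112, the partner of the ALKBH8 methyltransferase domain, was not listed, nor was ALKBH8. The ASCC complex, through which ALKBH3 reaches alkylated DNA, had windows in ASCC1 (strongest 2.17) and ASCC3 (2.01) and none in ASCC2. Of 6 genes of tRNA methylation, 4 were listed, with TRMT61A at 2.03 and TRMT61B at 2.20, and TRMT10C, a subunit of mitochondrial RNase P, had the highest value of the partners, 3.33. NSUN2, a cytosine methyltransferase, had 7 windows with a strongest value of 2.33. NSUN3, which makes the mitochondrial mark that ALKBH1 oxidises, was not listed, and neither was PCIF1, the writer of m6Am. In alkylation repair, the glycosylase MPG had 1 window at 2.00, and MGMT and XRCC1 had none.

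**Figure D4:**
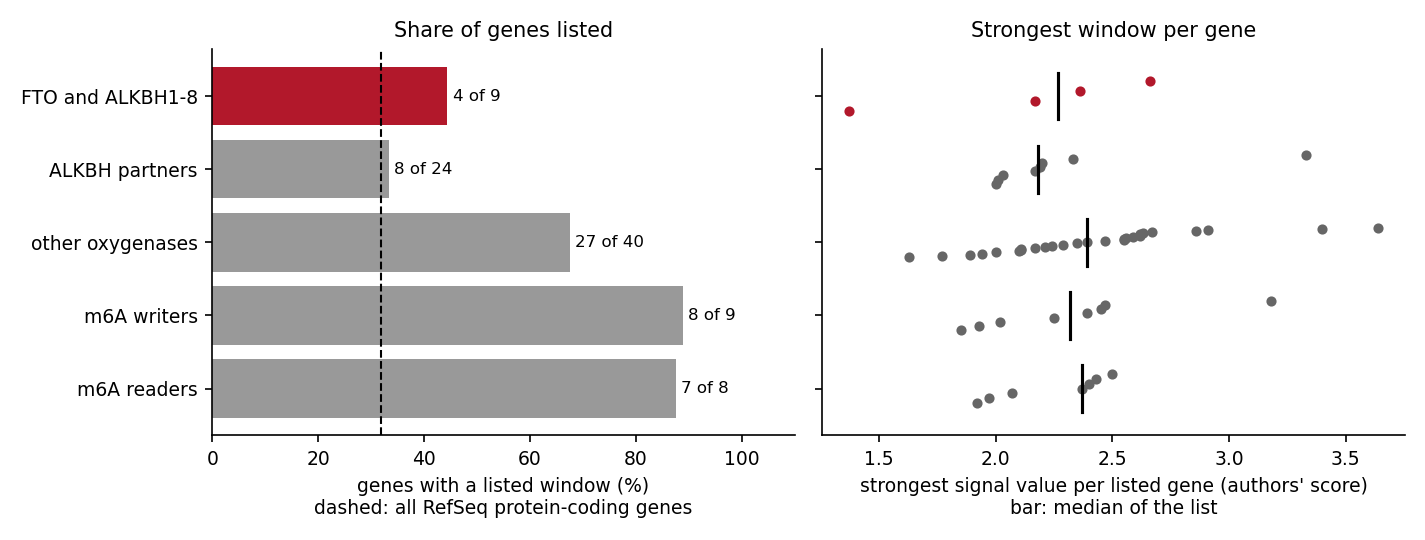
Left, share of genes with a listed window (%, bars from 0, counts beside them) for the 9 members, their partners, other oxygenases, m6A writers and m6A readers, with the 31.8% of all RefSeq protein-coding genes as a dashed line. Right, the strongest signal value (the authors' score) of each listed gene as a point and the median of each list as a vertical bar; 4 of 9 members are listed, beside 8 of 9 writers and 7 of 8 readers, while the medians of the 5 lists lie between 2.18 and 2.39.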

How the data were processed

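YTHDF1 RIP-seq and input libraries of SNU638 cells (2 biological replicates each) were used. Per the submitters' processing notes, STAR 2.7.3a and GRCh38 were used; the peak caller is not given in the sources used here. The authors deposited 1 table with a score (signal value), a rank, a p-value and a q-value per 50 bp window, with no library named; how the replicates were combined is not stated beyond a legend that speaks of their union. A repeated row (1 of 26820) was dropped, and 0 columns of single libraries were left unused. Positions are given from 1. Gene symbols were matched to RefSeq GRCh38.p14 (6370 of 6674 protein-coding symbols), which gave the gene spans and promoter sequences. Windows tested per gene came from the quotient of the authors' q-value and p-value. This step was tested on simulated data in which every window that passed was listed, so lists with missing windows were not covered. No test was run. All 9 members were named whatever their value, listed partner genes were named with theirs (except a result that is not reported here), and the other lists were given by count, median and range, with examples picked after their values were seen. Older symbols were updated (KIAA1456, LEPREL1, HAKAI) and each gene was counted once. Members and lists were chosen with earlier results of these data known. Tables were read with pandas 2.3.3 and NumPy 2.4.6 under Python 3.11.15, and plots were drawn with matplotlib 3.10.9.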

Additional observations from a re-analysis of the deposited data

How the results depend on the processing

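The 4 listed members became 1 under the Bonferroni limit over all windows counted, and 3 under the q-value limit of 0.001 and under the signal value limit of 2. The 18 member windows became 7, 3 and 5 under the q-value, Bonferroni and signal value limits, and 9 regions when touching windows were joined, as each construction implies. Leaving out windows that overlap another gene on the same strand left 18, and on either strand, chosen after seeing the data, 16. Taking the median of a gene's windows in place of the highest moved the median over listed members from 2.265 to 1.765. The strongest listed windows of the members lay a median of 24263 bp from the RefSeq 3′ end and 6951 bp from the 5′ end, by construction a different measure. No paired analysis was possible because replicate numbers match no column, each window having 1 value with no library named, and leaving out a replicate could not be run either. Without depth per library, an unlisted gene cannot be read as unbound.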
